A study of Mus musculus with 4 samples.

Results

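Otx2, Pou3f1, Sox1, Pax6, Neurog1, Neurog2, Neurod1, Olig2 and Nkx2-2 are 9 transcription factors of the epiblast and of the early nervous system, and they were chosen by name from the gene table of cultures differentiated towards cardiomyocytes. Of the 9, 8 had a row among the 24637 genes of the table, and Sox1 was not analysed here. Messenger RNA was sequenced in 4 libraries from mouse embryonic stem cells (ESCs), 2 labelled WT and 2 labelled Taf4a-/- (named KO-labelled from here on), each genotype being represented by a pair of ESC lines derived from blastocysts of Taf4a+/- crosses. The Taf4a-/- lines carry a germline deletion of internal exons of Taf4a, which encodes a subunit of the general transcription factor TFIID. Per the study's culture methods, all lines were grown on fibroblast feeders, aggregated for 5 days as embryoid bodies and kept for 9 days on gelatin-coated plates. The libraries are labelled day 9 of cardiac differentiation, which is taken here as the 9 days on plates. Every library thus comes from a mixed culture in which fewer cells of a type and less RNA per cell cannot be told apart. Nothing states that the 2 libraries of a genotype stand for more than 2 lines, so each p-value measures the spread between these libraries only.

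Otx2 is a homeodomain factor of the epiblast, anterior visceral endoderm and forebrain, and Pou3f1 (Oct6) is a POU factor that appears as ESCs leave the naive state. Sox1 marks the earliest neuroectoderm, and Pax6 and Nkx2-2 pattern the neural tube from its dorsal and ventral sides while Olig2 marks the motor neuron and oligodendrocyte progenitors between them. Neurog1, Neurog2 and Neurod1 are proneural basic helix-loop-helix factors that pair with E proteins, bind E-boxes and start neuronal differentiation. Several Hes and Id proteins oppose them. Several of these factors are also used outside the nervous system, since Pax6, Neurod1 and Nkx2-2 act in the endocrine pancreas and Pax6 in the eye.

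The 100 bases upstream of the annotated start are shown for the factor that passed the genotype test (Olig2), the most abundant one (Otx2) and the 2 neurogenins, whose highest counts were in different genotypes. They were read from build NCBIM37 and are written 5′ to 3′ on the strand of the gene, at chr16:91225695-91225794 (plus) for Olig2, chr14:49287320-49287419 (minus) for Otx2, chr3:127335954-127336053 (plus) for Neurog2 and chr13:56353525-56353624 (minus) for Neurog1. Capitals mark TATAAA and GGGCGG or its reverse complement CCGCCC.
Olig2: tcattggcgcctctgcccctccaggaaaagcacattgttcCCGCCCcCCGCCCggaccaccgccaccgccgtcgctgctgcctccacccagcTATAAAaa
Otx2: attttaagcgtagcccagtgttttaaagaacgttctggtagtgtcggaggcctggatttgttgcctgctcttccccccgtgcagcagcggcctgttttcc
Neurog2: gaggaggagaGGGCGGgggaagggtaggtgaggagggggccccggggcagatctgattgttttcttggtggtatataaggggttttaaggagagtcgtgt
Neurog1: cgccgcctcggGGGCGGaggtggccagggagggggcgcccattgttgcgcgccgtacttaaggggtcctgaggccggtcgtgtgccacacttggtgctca

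On either strand of the 250 bases upstream of the start, TATAAA was found for Otx2 (at position -192) and Olig2 (at position -8), and it was present in 8.96% of 18454 promoters of protein-coding genes. GGGCGG was found for 6 of the 8 factors, all but Otx2 and Pax6, against 46.9% of all promoters. The 250 bases before Otx2 held 42.0% G and C, the lowest of the 8, and those before Pou3f1 79.2%, the highest, with a median of 56.8% over all promoters. The general E-box CANNTG was present in 61.0% of all promoters, and among the proneural factors it was found before Neurog1 and Neurod1 and not before Neurog2. These matches describe the letters of the windows and were not tied to any measured binding.

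The libraries held 21732746 to 27733034 reads on genes. Values are given as normalized counts, the reads of a gene divided by 1 size factor per library, and 1 read was worth 0.877, 1.04, 0.979 and 1.11 normalized counts in the 2 WT libraries (replicates 1, 2) and the 2 KO-labelled ones. The Taf4a row held 889 and 678 normalized counts in WT and 1722 and 1799 in the KO-labelled libraries, a count over the whole gene that cannot check a deletion of some of its exons. The Y-linked Eif2s3y had 1688 and 0 normalized counts in WT and 309 and 0 in the KO-labelled libraries. Xist, which coats and silences an X chromosome, had 6.14 and 7.27 in WT, where it did not separate the lines, and 217 and 6470.0 in the KO-labelled libraries. Cardiomyocyte markers (Tnnt2, Actc1, Myl2, Myl7, Myh6 and Nkx2-5) summed to 18738 and 20429 in WT and to 1252 and 1485 in the KO-labelled libraries, and all 6 were above the 3-read floor in both genotypes. Fibroblast markers (Col1a1, Col3a1 and Thy1) summed to 277754 and 400244 in WT and to 28517 and 30084 in the others.

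Otx2 was the most abundant of the factors, and Olig2 was the only one called different between genotypes. Otx2 (ENSMUSG00000021848, chr14:49277354-49287319, minus strand) had 706 normalized counts in WT replicate 1, 246 in WT replicate 2, 861 in KO-labelled replicate 1 and 763 in KO-labelled replicate 2, the order kept for the values below. WT replicate 2 was thus the low library, and both KO-labelled libraries lay above both WT libraries, WT replicate 1 being close to them. Olig2 (ENSMUSG00000039830, chr16:91225795-91228922, plus strand) had 43.8 and 11.4 normalized counts in WT and 106 and 122 in the KO-labelled libraries, again with WT replicate 2 lowest and no overlap between genotypes. Pax6 (ENSMUSG00000027168, chr2:105509053-105543317, plus strand) had 92.9 and 55.1 normalized counts in WT and 97.9 and 39.8 in the KO-labelled libraries. The genotypes overlapped for Pax6, and replicate 1 was the higher library in each.

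**Figure D1:**
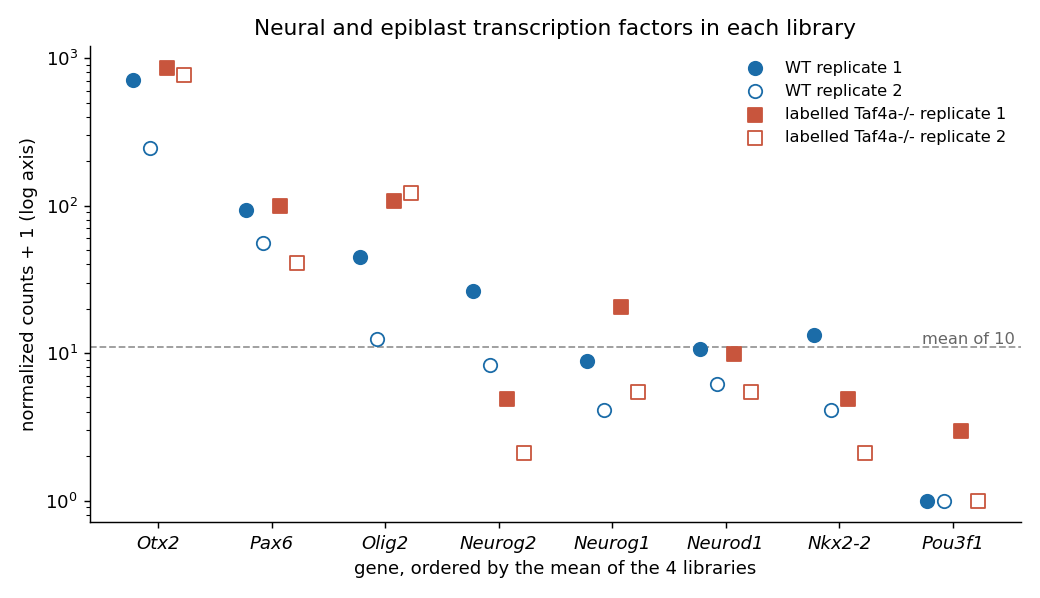
Normalized counts plus 1 (log axis) of the 8 factors with a row, with 1 point per library (circles WT, squares KO-labelled, marked as labelled Taf4a-/- in the legend, filled symbols replicate 1, open symbols replicate 2). The dashed line marks a mean of 10, which Otx2, Pax6 and Olig2 exceeded. Olig2 was at 106 and 122 in the KO-labelled libraries, above 43.8 and 11.4 in WT, while Neurog2 was at 25.4 and 7.27 in WT.

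The other 5 factors had a mean under 10 normalized counts, and their reads are given as counted. Neurog2 (ENSMUSG00000027967, chr3:127336054-127338549, plus strand) had 29 and 7 reads in WT and 4 and 1 in the KO-labelled libraries, with both WT libraries above both others. Neurog1 (ENSMUSG00000048904, chr13:56351866-56353524, minus strand) had 9 and 3 reads in WT and 20 and 4 in the KO-labelled libraries, the genotypes overlapping. Neurod1 (ENSMUSG00000034701, chr2:79292678-79296908, minus strand) had 11 and 5 reads in WT and 9 and 4 in the KO-labelled libraries, nearly the same in both genotypes. Nkx2-2 (ENSMUSG00000027434, chr2:147003282-147019979, minus strand) had 14 and 3 reads in WT and 4 and 1 in the KO-labelled libraries, with WT replicate 1 the high library and the others at 4 reads or fewer. Neurog1 and Neurog2, the most closely related of the proneural factors, thus had their highest value in different genotypes. For Neurog1 this rests on the 20 reads of KO-labelled replicate 1, and neither gene was called different between genotypes.

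Pou3f1 (ENSMUSG00000078236, chr4:124334896-124337899, plus strand) had 0 reads in 3 libraries and 2 reads in KO-labelled replicate 1. A count of 0 allows up to 3 reads, equal to 2.63 normalized counts in WT replicate 1 and 3.12 in WT replicate 2. In the annotation of NCBIM37, 3003 of the 3004 exonic bases of this gene also lay in a pseudogene model of the same name and strand (ENSMUSG00000090125), which had no row in the table. Of 24 protein-coding genes with at least 99% of their exonic bases inside another gene, 16 (66.7%) had 3 reads or fewer in every library, against 1409 of 14080 genes (10.0%) with no shared exonic base. How the counting treated reads on overlapping models is not given in the sources used here, and the part of the overlap in the count of Pou3f1 was not tested. No level of Pou3f1 is therefore read from its row.

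**Figure D2:**
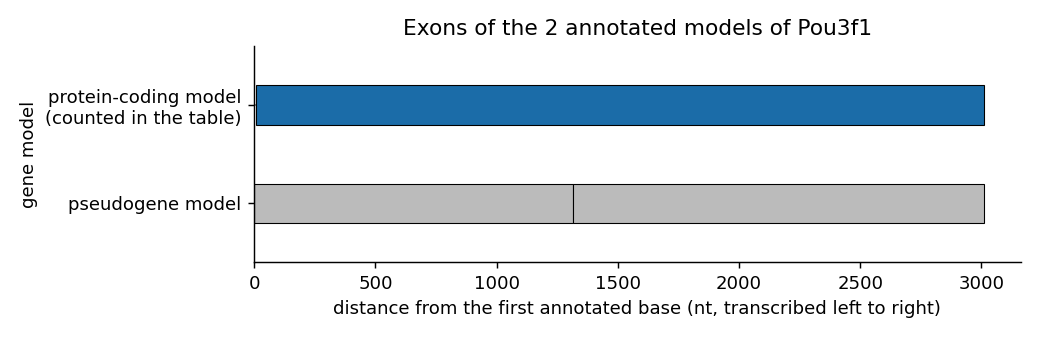
Exons of the 2 annotated models of Pou3f1 against the distance in nucleotides from the first annotated base, drawn in the direction of transcription (blue, the protein-coding model with a row in the table; grey, the pseudogene model). The pseudogene model covers 3003 of the 3004 exonic bases of the protein-coding model.

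Levels can be compared between genes only per length, here as RPKM, reads scaled to the length of the longest coding transcript in kilobases and to the library total. Otx2 stood above the others in every library, at 8.47 ± 6.0 RPKM in WT and 14.9 ± 1.40 in the KO-labelled libraries (mean ± SD, n = 2). In WT the next in order were Olig2 (0.46 ± 0.39 RPKM), Pax6 (0.36 ± 0.14), Neurog2 (0.30 ± 0.24), Nkx2-2 (0.15 ± 0.13), Neurog1 (0.13 ± 0.086) and Neurod1 (0.11 ± 0.050), and no neighbours in this order differed beyond the spread between the 2 libraries. In the KO-labelled libraries Olig2 came second at 1.95 ± 0.18 RPKM, apart from Otx2 above and from Pax6 below (0.34 ± 0.21). Below it, Neurog1 (0.30 ± 0.27), Neurod1 (0.10 ± 0.048), Nkx2-2 (0.050 ± 0.040) and Neurog2 (0.047 ± 0.038) did not differ from their neighbours beyond the spread. The place of Pax6 depends on the length used, since its reads were counted over the whole gene. Scaled to its 19833 exonic bases it had 0.15 ± 0.059 RPKM in WT and 0.15 ± 0.088 in the KO-labelled libraries, and with every gene scaled in this way Pax6 came after Neurog2 in WT and after Neurog1 in the KO-labelled libraries.

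The rows of some factors share bases with other genes, and the library kit does not mark strand. Of the exonic bases of Pax6, 27.9% also lay in Elp4 on the opposite strand, a gene with 380 to 510 normalized counts, so that reads of the 2 genes cannot be told apart there. Neurod1 shared 201 bases with Cerkl on its own strand, which had 7.89 and 14.5 normalized counts in WT and 6.85 and 1.11 in the KO-labelled libraries. Another 154 bases of Neurod1 lay in Gm17325 on the opposite strand, which had no row. Nkx2-2 shared 278 bases with its antisense gene Nkx2-2as, which had 1 read or none in each library.

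Otx2, Olig2, Pax6, Neurog2 and Nkx2-2 were higher in WT replicate 1 than in WT replicate 2 beyond counting error. The 7 factors with a mean of at least 5 all had the larger value in WT replicate 1, as did 48.3% of the 18209 genes at that level, and Pou3f1 had 0 reads in both. Of the 3 with a mean of at least 10, 2 were at least 2-fold higher in WT replicate 1, where 4.3% of 16926 genes were. Of the 4 with a mean from 5 to under 10, 3 were at least 2-fold higher, where 23.5% of 1283 genes at that level were. With 1 library against 1 there is no test, and the intervals that follow are exact 95% intervals (Clopper-Pearson) that cover counting error only.

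Otx2 was 2.87 times as high in WT replicate 1 as in WT replicate 2 (805 and 237 reads, interval 2.48 to 3.33). Olig2 was 3.84 times as high (50 and 11 reads, interval 1.97 to 8.17) and Neurog2 3.50 times as high (29 and 7 reads, interval 1.5 to 9.45). The difference of Pax6 was smaller, at 1.69 times (106 and 53 reads, interval 1.20 to 2.39). For Nkx2-2 the ratio was 3.94 with an interval of 1.10 to 21.4, while for Neurog1 (2.53, interval 0.632 to 14.5) and Neurod1 (1.86, interval 0.595 to 6.81) a difference between the WT libraries was not detectable at this depth. The order of the ratios was not resolved, since the intervals of Otx2, Olig2, Neurog2 and Nkx2-2 overlapped.

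The KO-labelled libraries differed less for Otx2 and Olig2. The ratio of replicate 1 to replicate 2 was 1.13 for Otx2 (interval 1.02 to 1.25) and 0.869 for Olig2 (interval 0.660 to 1.14). Pax6 was 2.46 times as high in replicate 1 as in replicate 2 (100 and 36 reads, interval 1.66 to 3.71), and Neurog1 4.43 times (20 and 4 reads, interval 1.48 to 17.8). For Neurog2 (3.54, interval 0.350 to 174) and Nkx2-2 (3.54, interval 0.350 to 174), with 4 reads and 1 read each, and for Neurod1 (1.99, interval 0.556 to 8.85) no difference was detectable. At least 2-fold higher in replicate 1 were 1 of the 3 factors with a mean of at least 10 (background 3.03%) and 3 of the 4 with a mean from 5 to under 10 (background 21.5%). Replicate 1 was the higher library in both genotypes for 6 of the 7 factors, all but Olig2, against 22.7% of the 18209 genes whose mean reached 5.

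**Figure D3:**
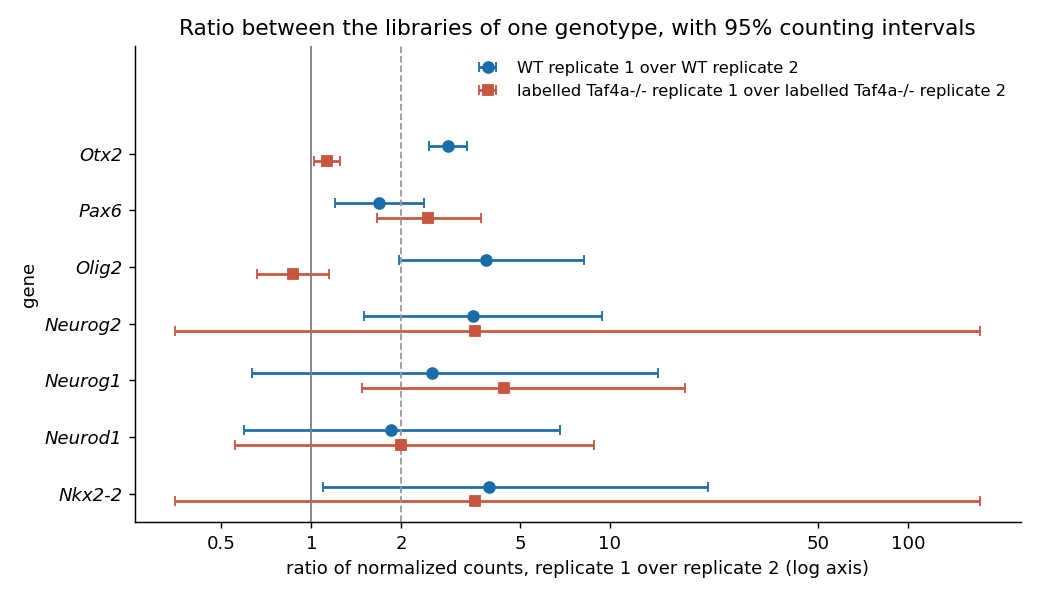
Ratio of normalized counts in replicate 1 to those in replicate 2 (log axis) for the 7 factors with a mean of at least 5, with blue circles for the WT libraries and red squares for the KO-labelled libraries. Bars are 95% counting intervals, the solid line marks a ratio of 1 and the dashed line a ratio of 2. All WT ratios lie above 1, from 1.69 for Pax6 to 3.94 for Nkx2-2, and Olig2 is the one factor below 1 in the KO-labelled libraries, at 0.869.

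Olig2 rose in the KO-labelled libraries. The test was limma on log2(normalized count + 1) over the 16926 genes whose mean reached 10, called at a Benjamini-Hochberg adjusted p under 0.05, and log2 fold changes are on that scale, which understates the change of low genes. Of the 3 factors tested, 1 was called higher and 0 lower, against 11.3% of all genes tested called higher and 17.3% called lower. Olig2 had a log2 fold change of 2.28 (SE 0.61, limma adjusted p = 0.0381). Its call was lost without WT replicate 2 (1.35, adjusted p = 0.0661), without KO-labelled replicate 2 (2.18, adjusted p = 0.0687) and with a variance prior that had no trend (adjusted p = 0.0930), and over all its alternatives the adjusted p ran from 0.0163 to 0.0930.

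The size of the genotype difference of Otx2 and Olig2 depended on which WT library it was measured against. Otx2 had a log2 fold change of 0.96 (SE 0.46, limma adjusted p = 0.162). The KO-labelled libraries held 1.16 times the Otx2 of WT replicate 1 (interval 1.06 to 1.26) and 3.31 times that of WT replicate 2 (interval 2.89 to 3.81). Without WT replicate 1 the log2 fold change of Otx2 was 1.72 and was called (limma adjusted p = 0.0154), and without WT replicate 2 it was 0.20 (adjusted p = 0.346). For Olig2 the KO-labelled libraries held 2.58 times the WT replicate 1 value (interval 1.89 to 3.59) and 9.90 times the WT replicate 2 value, so that Olig2 was higher against either WT library.

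Pax6 had a log2 fold change of -0.19 (SE 0.50, limma adjusted p = 0.798, 95% interval -1.42 to 1.03), a range that spans a fall and a rise of at least 2-fold. Its sign turned without WT replicate 1 (0.18), without KO-labelled replicate 2 (0.45) and after quantile normalization (0.14), so no direction is given for it.

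For the factors under a mean of 10, the same fit without the filter on low values made no call. Neurog2 had a log2 fold change of -2.20 (SE 0.78, limma adjusted p = 0.0995), and the ratio of WT to the KO-labelled libraries was 6.59 over 36 and 5 reads (interval 2.58 to 21.5, counting error only). Against WT replicate 2 alone, the KO-labelled libraries had 0.357 times the Neurog2 value with an interval of 0.0893 to 1.31. Nkx2-2 (log2 fold change -1.20, adjusted p = 0.349), Neurog1 (0.80, adjusted p = 0.539) and Neurod1 (-0.15, adjusted p = 0.880) had limma intervals that included 0, and Neurod1 had an interval from -1.63 to 1.32 on the log2 scale. Among the 7 factors with a mean of at least 5, both KO-labelled libraries lay above both WT libraries for 2, Otx2 and Olig2 (background 34.3%), and below them for 1, Neurog2 (background 35.7%), which is near or under the background for each.

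**Figure D4:**
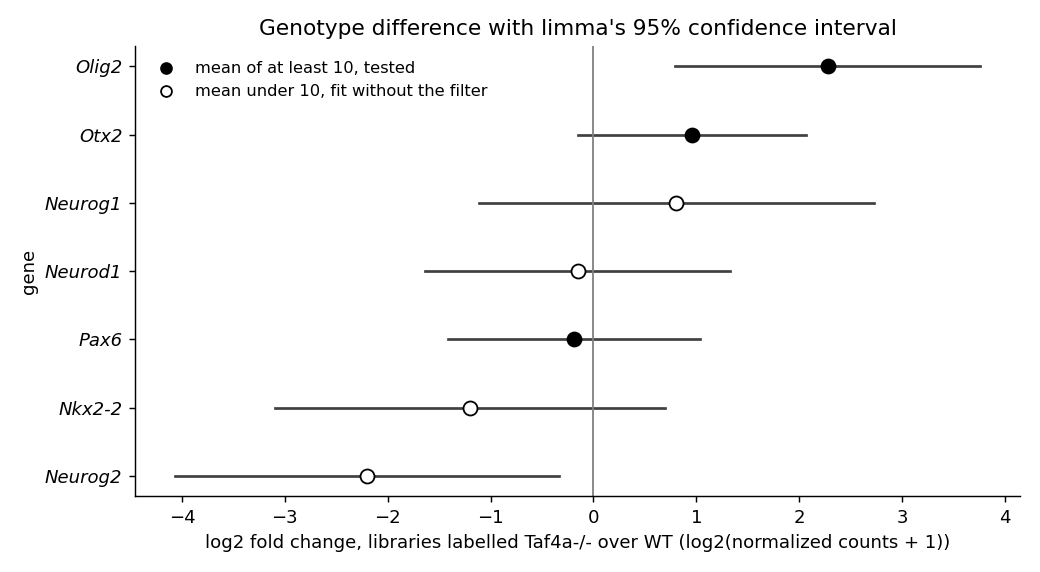
Log2 fold change of the KO-labelled libraries over WT for 7 factors, with limma's 95% confidence intervals (filled points, mean of at least 10 and tested; open points, mean under 10, from the fit without the filter on low values). Olig2 is highest at 2.28, Neurog2 lowest at -2.20, and Pax6 lies at -0.19 with an interval from -1.42 to 1.03.

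Related genes, taken from lists of each pathway, are given by counts and medians beside those of all genes tested. Of these, 1906 (11.3%) were called higher and 2928 (17.3%) lower (median log2 fold change -0.01). Of 17 other epiblast genes, 8 were called higher and 0 lower in the KO-labelled libraries, the median being 1.39 (2.13 without WT replicate 1, 0.79 without WT replicate 2). Utf1, a chromatin factor of pluripotent cells, rose the most (log2 fold change 2.70). Of 9 naive pluripotency genes, 7 were higher and 0 lower (median 2.76), led by the germ line and pluripotency factor Prdm14 (3.54). Of 7 POU and Otx relatives, 2 were higher and 2 lower (median -0.37, and 0.26 without WT replicate 1), with Pou5f1 (Oct4) at 2.54 and the neural POU factor Pou3f4 at -2.65. Otx1, the forebrain relative of Otx2, was among the genes that fell, at -2.24 (limma adjusted p = 0.0386), with 87.7 and 31.2 normalized counts in WT and 13.7 and 7.74 in the KO-labelled libraries. Otx1 is named after its values were seen.

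The other neural genes did not follow one direction between genotypes. Of 22 other neural progenitor factors tested, 1 was called higher and 1 lower (median log2 fold change 0.29, or -0.019 to 0.40 with each library left out in turn). The factor that rose was Sox2 (1.93), which is shared by pluripotent and neural cells, and the one that fell was Fabp7 (-3.19), the fatty acid binding protein of radial glia. Olig1, the relative of Olig2 on the same chromosome, named after its values were seen, had 115 and 18.7 normalized counts in WT and 280 and 197 in the KO-labelled libraries (log2 fold change 2.30, limma adjusted p = 0.0719). Of 12 other proneural and neuronal factors, 1 was higher and 0 lower (median -0.27, 0.020 without WT replicate 1 and -0.55 without WT replicate 2), the sensory neuron factor Pou4f1 (1.91). Of 15 neuronal structure genes, 0 were higher and 4 lower (median -1.0, and -0.092 without WT replicate 1), the largest fall being that of Snap25, a protein of synaptic vesicle release (-2.05). Of 10 genes listed as inhibitors of proneural factors by family (Hes, Hey and Id genes, and Rest), 2 were higher and 4 lower (median -0.20). The action of each single gene was not tested. The repressor of neuronal genes Rest was at 0.53 and the Notch target Heyl at -3.51.

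Genes of the other settings in which these factors act are set beside the 11.3% of all genes tested called higher and 17.3% called lower. The counts are small, and those of the oligodendrocyte and pancreatic lists were near these shares. Of 9 oligodendrocyte lineage genes, which follow Olig2 and Nkx2-2 in that lineage, 1 was called higher (Mobp, a myelin protein gene, 5.06) and 2 lower (Cspg4, also made by pericytes, fell most at -3.27). The median of this list was 0.26. Of 8 pancreatic endocrine genes, 1 was higher (the beta cell factor Mafa, 3.71) and 1 lower (Rfx6, -1.53), with a median of 0.00. Of 5 retina and lens genes, 1 was higher (Rlbp1, 2.22) and 2 lower (the lens crystallin Cryaa, -4.88), with a median of -1.78. Mobp and Mafa were at or under the 3-read floor in both WT libraries, at 2.63 and 2.08 normalized counts each. Cryaa was under it in both KO-labelled libraries, at 1.96 and 1.11. The size of these changes therefore depends on the pseudocount. Of 12 genes of anterior visceral endoderm and mesendoderm, a further site of Otx2, 1 was higher (Lefty1, 2.08) and 2 lower (Foxa2 fell most, at -1.07), with a median of 0.70 (1.56 without WT replicate 1, 0.0059 without WT replicate 2).

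Some of the lists also differed between the 2 WT libraries. At least 2-fold higher in WT replicate 1 were 17 of the 22 other neural progenitor factors, 11 of the 17 other epiblast genes, 8 of the 12 anterior visceral endoderm and mesendoderm genes and 4 of the 7 POU and Otx relatives, where 728 of 16926 genes (4.3%) were. None of the genes of these 4 lists was 2-fold higher in WT replicate 2. The 4.3% covers every gene with a mean of at least 10, and the share was 23.5% at a mean from 5 to under 10. The median level was 33.1 normalized counts for the neural progenitor list and 35.1 for the POU and Otx relatives. For the epiblast list it was 860, and for the visceral endoderm and mesendoderm list 312. No share matched for level was computed. Some genes were on several lists, such as Sox3 (neural progenitor and epiblast) and Gsc (visceral endoderm and POU relatives), so the lists were not independent. Median differences, WT replicate 2 minus WT replicate 1 on the log2 scale, were -1.51 for the neural progenitor factors, -1.37 for the epiblast genes, -1.78 for the visceral endoderm and mesendoderm genes and -1.46 for the POU and Otx relatives, against 0.02 for all genes tested. They were -0.68 for the other proneural factors (4 of 12 genes at least 2-fold higher), -0.84 for the neuronal structure genes (5 of 15) and -0.16 for the inhibitors (0 of 10). The remaining lists had smaller differences than the epiblast list, at -0.43 for the naive pluripotency genes (2 of 9), -0.44 for the pancreatic endocrine genes (3 of 8), -0.24 for the oligodendrocyte lineage genes (2 of 9) and -0.04 for the retina and lens genes (2 of 5). On the same scale Otx2 was at -1.52, Olig2 at -1.85 and Pax6 at -0.74. Of the markers of the epiblast (Fgf5, Otx2, Pou3f1 and Dnmt3b), the sum was 4639 in WT replicate 1, 1246 in WT replicate 2 and 6865 and 5078 in the KO-labelled libraries, with Pou3f1 at or under the floor in each. This sum includes Otx2 itself, and Dnmt3b was its largest part in each library. The neural progenitor markers (Pax6, Nes, Sox3 and Hes5) summed to 3037 and 3844 in WT and to 5656 and 3810 in the others. Nes, their largest part, was higher in WT replicate 2 (2823 and 3746), while Pax6, Sox3 and Hes5 were higher in WT replicate 1. Neuron markers (Tubb3, Map2, Dcx, Stmn2, Elavl3 and Elavl4) summed to 1302 and 869 in WT and to 1075 and 1283 in the others. Tubb3 and Stmn2 were the largest parts of this sum in each library. Tubb3 was higher in both KO-labelled libraries than in either WT library, Dcx and Elavl4 were lower, and the genotypes overlapped for the other markers. All but Tubb3 were higher in WT replicate 1 than in WT replicate 2. The part of epiblast or neural cells, or of what sets the WT lines apart in Eif2s3y, in the values of Otx2 and Olig2 was not tested.

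**Figure D5:**
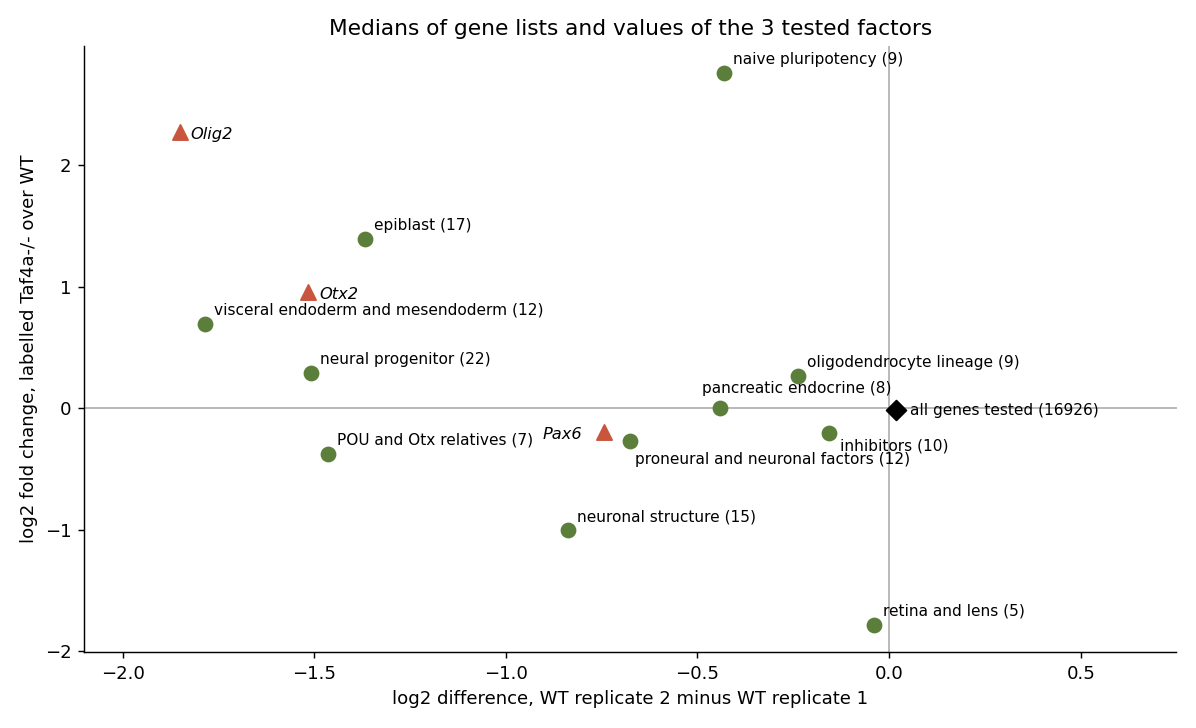
Median log2 fold change of the KO-labelled libraries over WT against the median log2 difference of WT replicate 2 minus WT replicate 1, for 11 gene lists (green circles, number of genes tested in brackets), all genes tested (black diamond) and the single values of Otx2, Olig2 and Pax6 (red triangles). Both axes use the WT libraries, so the 2 values of a list are not independent. The neural progenitor list lies at -1.51 and 0.29 and the epiblast list at -1.37 and 1.39.

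The genes with the most similar profile over the 4 libraries were found by the smallest Euclidean distance of centred log2 values among 13861 other genes with a mean of at least 50, a description over 4 points. For Otx2 they were Dach1 (distance 0.107), Frat1 (0.171) and St6gal2 (0.183). Dach1, a transcriptional cofactor, had 306 and 113 normalized counts in WT and 386 and 319 in the KO-labelled libraries, the same low WT replicate 2. For Olig2 they were Myb (0.259), Lefty2 (0.261) and Pou5f1 (0.286). Myb, the nearest, had 56.1 and 18.7 normalized counts in WT and 144 and 155 in the KO-labelled libraries. Pou5f1, the farthest of these, had 1097 and 278 normalized counts in WT and 3113 and 3325 in the KO-labelled libraries. For Pax6 they were Ptprz1 (0.160), Lrrn1 (0.171) and Ppp4r4 (0.295). Ptprz1, a receptor phosphatase of neural progenitors and glia, had 98.2 and 52.0 normalized counts in WT and 91.0 and 36.5 in the KO-labelled libraries, with replicate 1 the higher library in both genotypes as for Pax6.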

How the data were processed

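Messenger RNA from 4 libraries (2 WT, 2 labelled Taf4a-/-) was sequenced after a TruSeq preparation. Per the submitters' processing notes, base calling used CASAVA 1.8, mapping TopHat 1.3.3 to mm9, counting HTSeq 0.5.3p1, and normalization DESeq. The authors deposited the counts of each gene divided by 1 size factor per library, with decimal commas, and 0 value columns were left unused. The counting mode is not given in the sources used here.

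Reads were recovered from the step between low values of a library, and 100% of values came out whole within 0.01 reads. The NCBIM37 annotation held all 24637 identifiers, 99.4% with the same symbol. Genes whose mean reached 10 (16926) were compared on log2(value + 1) by limma 3.58.1 under R 4.3.3 (lmFit, eBayes with a variance trend, prior degrees of freedom 4.17), and genes were called at a Benjamini-Hochberg adjusted p under 0.05. The floor of 3 reads and the 95% intervals cover counting error only, as the reads carry no molecular identifiers. Promoter windows were 250 bases. Figures were drawn with matplotlib 3.10.9 in Python 3.11.15, and the test was tried on simulated data. Alternatives were other pseudocounts, filters, scalings, variance models, a replicate block and leaving out each library.

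The factors and the gene lists were chosen with earlier results of these data known. Besides the factors, the text names Taf4a, Xist, Eif2s3y, cell type markers, of each list the called genes with the largest rise and fall, and the 3 genes nearest in profile to each factor with a mean of at least 50. Of the genes on the 11 lists, 6 were not found under the listed symbol and were not analysed here.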

Additional observations from a re-analysis of the deposited data

How the results depend on the processing

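The genes called higher and lower numbered 1906 and 2928, and 856 and 1741 with a variance prior that had no trend. Leaving out each library gave 624 to 2476 called higher and 1222 to 3038 called lower, a lone library of a genotype being assumed to vary like the other genotype. Of the factors tested, 1 was called higher, 0 without the trend, and 0 to 2 over the leave-one-out fits. The log2 fold change of Pax6 was 0.14 after quantile normalization and -0.83 to 0.45 over the leave-one-out fits. Quantile normalization moved the median of all genes to 0.11 and the share of calls that were higher from 39.4% to 52.2%. The WT difference kept its direction for every factor under each pseudocount and scaling run for it. Over the leave-one-out fits the list medians ran from 0.79 to 2.13 for the epiblast genes, 2.30 to 3.02 for the naive pluripotency genes, 0.0059 to 1.56 for the visceral endoderm and mesendoderm genes, -0.66 to 0.26 for the POU and Otx relatives, -0.97 to -0.092 for the neuronal structure genes, -0.36 to 0.58 for the pancreatic genes and -3.09 to -1.84 for the retina and lens genes. Those of the neural progenitor factors ran from -0.019 to 0.40, those of the other proneural factors from -0.55 to 0.020 and those of the oligodendrocyte genes from -0.042 to 0.31. These 3 medians, like those of the POU and Otx relatives and of the pancreatic genes, kept no one sign.

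With the replicate number as a replicate block, 1536 genes were called higher and 2657 lower, Olig2 kept a log2 fold change of 2.28 (limma adjusted p = 0.0313) and Otx2 stayed uncalled (adjusted p = 0.0744). Same-numbered libraries deviated together with a correlation of only 0.0118, so the numbers were not taken to pair the lines. The voom fit of the recovered reads, chosen after seeing the data, is counted among the alternatives, whereas edgeR and DESeq2 were not run. The depth limits the factors under a mean of 10.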
